A study of Mus musculus with 9 samples.

Results

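Activated and memory CD4 T cells of the mouse spleen were taken from a CITE-seq experiment, in which transcripts and antibody-bound DNA tags are counted in the same cells. A cell belonged to the population when it held at least 2 unique molecular identifiers (UMIs, counts of original molecules) of the CD3 genes Cd3d, Cd3e and Cd3g together and at least 1 of Cd4. It had to hold none of Cd8a, Cd8b1, Foxp3 and Il2ra, at most 1 of the B cell gene Cd79a, and at least 2 UMIs summed over Maf, Tnfsf8, Izumo1r and Sostdc1. The members were thus chosen by their measured transcripts, of the 4 markers above all. These gates found 1156 cells among 45217 cells with a hashtag. Spleens carried 0, 1 or 2 copies of the R594C mutation in IRE1, a sensor of endoplasmic reticulum stress encoded by Ern1 (genotypes WT, R594C/+ and R594C/R594C), and the question was whether the mutation changes the immune compartment. Live cells of each genotype were captured in 1 droplet run, and hashtag antibodies to CD45 and MHC class I marked 4 replicates of WT, 4 of R594C/+ and 2 of R594C/R594C. Nothing in the labels says that replicates are separate animals. A p-value here thus speaks of the spread among the 10 samples, some of which may be technical. Each genotype had its own capture and its own staining tube, and these cannot be told apart. By Xist and Y-linked transcripts, 3 of 4 WT replicates were male, all 4 R594C/+ replicates were female, and R594C/R594C had 1 of each. Replicates of unlike sex within a genotype came from different animals, while for those of the same sex this is unknown.

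Naive CD4 T cells recirculate through lymphoid tissue, guided by homing receptors such as the chemokine receptor Ccr7. After antigen they lose these receptors, gain adhesion molecules and checkpoint receptors, and become helper subsets: follicular helper cells make IL-21 for B cells, and T helper 1 cells make interferon gamma. Of the genes in the gate, Maf encodes a transcription factor that drives Il21, Il10 and Il4, Tnfsf8 encodes CD30 ligand, Izumo1r encodes folate receptor 4, and Sostdc1 encodes a secreted antagonist of BMP and WNT signals known from follicular helper cells. Icos, a costimulatory receptor of activated T cells, was not part of the gate.

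The replicates and the surface proteins were both read from short DNA tags. The same 4 hashtags assign every cell below to its replicate, though only 2 of them marked replicates of the homozygous genotype:
Hashtag1: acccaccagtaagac
Hashtag2: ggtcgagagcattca
Hashtag3: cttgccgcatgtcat
Hashtag4: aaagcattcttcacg
Among the antibody tags, the 7 below carry the surface pattern on which the comparison with other CD4 T cells turns, 6 being higher and CD55 lower:
CD73: acacttaacgtctgg
CD278: cgcgcacccattaaa
CD279: gaaagtcaaagcact
CD200: tcaattccggtagtc
CD38: cgtatccgtctccta
CD69: ttgtattccgccatt
CD55: attgttgtcagacca
All tags have 15 bases, and any 1 of these 11 differed from every other tag in the panel at 5 or more positions.

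The population held 79 to 152 cells per replicate and 335692 to 668729 RNA UMIs per replicate. A median cell had 3245.5 RNA UMIs, 1490 genes, 548 antibody tag UMIs and 2.01% mitochondrial UMIs. The cells that serve as the comparison, here called other CD4 T cells, passed the same gates with 0 UMIs of the 4 markers. There were 913 of them, with medians of 3287 RNA UMIs, 1325 genes and 362 antibody tag UMIs, so RNA depth was close while members carried more tags in total. Replicates 1 and 2 of R594C/+ held only 14 and 31 of these other cells. Among all cells with a hashtag, 186 barcodes occurred in more than 1 capture, but none of the 1156 members did. Doublets were removed only through the hashtag ratio and the Cd79a and Cd8 gates, and no doublet caller was run.

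Maf was detected in 899 members (77.8%), Izumo1r in 880 (76.1%), Tnfsf8 in 704 (60.9%) and Sostdc1 in 218 (18.9%). In B cells the shares were 4.05%, 0.947%, 0.649% and 0.165% at a median of 2956 UMIs. All 4 markers were found together in 122 members, 3 in 374, 2 in 431 and only 1 in 229. Of the Sostdc1-positive members, 84.9% also had Tnfsf8, 82.6% had Maf and 78.0% had Izumo1r, where 60.9%, 77.8% and 76.1% of all members did. Sostdc1 was the sole marker in 2 members. The gate requires a second marker in any member with 1 Sostdc1 UMI, so these values are no test of co-occurrence. The genes lie at chr8:115703253-115706894 (Maf), chr4:63831202-63861508 (Tnfsf8), chr9:14885814-14903951 (Izumo1r) and chr12:36314169-36318452 (Sostdc1) in GRCm38.p6, the assembly also called mm10.

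The marker sum had a median of 7 and a highest value of 66 UMIs, and 140 members stood at the threshold of 2. Those 140 cells looked intermediate when set beside the 288 cells with a sum of 1 just outside and the 1016 members with 3 or more. In CPM, the UMIs of a gene per 1000000 UMIs of the cells pooled, Icos was 492 just outside, 647 just inside and 923 at 3 or more, and Ctla4 was 145, 323 and 838. Ccr7 was 698 just outside and 781 just inside, and dropped to 240.1 only at a sum of 3 or more. The CD73 tag was at 4.08, 8.09 and 19.8 UMIs per cell, and the CD55 tag at 10.4, 8.27 and 3.53. These values describe the threshold, with no test.

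Transcripts of members and other CD4 T cells are given as a description, because the gate that separates the classes was set on transcripts. Among the 5 named markers, Icos was the only one the gate did not use, and it was higher in members in 10 of 10 replicates. Its level was 905 ± 166 CPM in members (mean ± SD, n = 10 replicates), 319.7 ± 77.1 in other CD4 T cells and 1009 in the 206 cells with at least 1 Foxp3 UMI. Of 6283 genes at 20 CPM or more in either class, 800 (12.7%) were higher in members in all 10 replicates and 269 (4.28%) were lower in all 10, with a median log2 ratio of 0.24.

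Helper cytokine genes were higher in members: all 8 at 20 CPM or more exceeded other CD4 T cells in all 10 replicates, with a median log2 ratio of 2.90. Il21, the cytokine of follicular help, was not found in other CD4 T cells (0 of 3166713 UMIs), so with a floor of 3 counts over that group it was at least 99.3-fold higher in members. Per replicate Il21 was 86.4, 85.1, 116 and 142 CPM in WT, 144, 93.8, 83.4 and 130.5 in R594C/+, and 73.3 and 22.7 in R594C/R594C. Its 422 UMIs came from 197 members (17%), against 0.0620% of B cells. The lowest value was that of R594C/R594C replicate 2, and every replicate had the transcript.

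Il10, which encodes an inhibitory cytokine, ranged from 66.4 to 322 CPM over replicates and was higher than in other CD4 T cells in 10 of 10 (183 ± 94.0 against 3.65 ± 7.29 CPM, n = 10, a 50.1-fold ratio of the means). It was found in 13.4% of members, 10.7% of Foxp3+ cells and 1.99% of B cells. Ifng, the T helper 1 cytokine, was at 379 ± 115 CPM in members and 50.9 ± 59.8 in other CD4 T cells, and 32.8% of members had a UMI against 1.29% of B cells. Osteopontin (Spp1), a secreted cytokine of activated T cells and macrophages, had 2 UMIs in other CD4 T cells and a pooled ratio of 164 between members and those cells, with a 95% counting interval from 45.3 to 1362. Intervals of this kind cover counting error only. A few cells held much of the Spp1: 87 members had it, and the top 10 held 44.6% of its UMIs. Il4 was found in 2.77% of members and 0.261% of B cells, whereas Il17a, the T helper 17 cytokine, was found in 0.0865% of members and 0.00414% of B cells.

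Follicular helper genes were higher as a group: 11 of 17 were above other CD4 T cells in all 10 replicates and 1 was below, with a median log2 ratio of 1.64. Bcl6, the lineage factor, was at 89.1 ± 11.8 CPM in members and 28.6 ± 6.29 in other CD4 T cells. Pdcd1, which encodes the checkpoint receptor PD-1, was at 183 ± 56.7 and 17.8 ± 36.6 CPM, and Tox2 at 84.9 ± 23.1 and 3.38 ± 6.69. Cxcr5, the receptor that leads T cells into follicles, was at 45 ± 12.2 CPM in members and 15.3 ± 23.5 in other CD4 T cells and was higher in 9 of 10 replicates. Only 14.2% of members had a Cxcr5 UMI, below the 55.5% of B cells, which use the same receptor. These genes did not set members apart from Foxp3+ cells, of which 38.8% had Pdcd1 (33.1% of members), 23.3% Bcl6 (22.1%) and 16.5% Cxcr5. Tox2 was slightly rarer in Foxp3+ cells (18.4% against 20.5%). Cd200 was clearly rarer there (12.1% against 26.2%), and Il21 was found in 1 of 206 Foxp3+ cells against 197 of 1156 members. The difference from Foxp3+ cells was not tested.

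T helper 1 and cytotoxic genes were mixed, with 5 of 13 higher in all 10 replicates and a median log2 ratio of 1.04. Tbx21, the T helper 1 factor, was at 39.6 ± 13.0 CPM in members against 4.74 ± 4.58, and Cxcr3 at 97.7 ± 25.3 against 14.6 ± 19.2. Ccl5, a chemokine of cytotoxic and memory cells, did not separate the classes: it ranged from 71.3 to 1868 CPM in members and from 36.2 to 1282 in other CD4 T cells, and members were higher in 7 of 10 replicates. Gata3, the T helper 2 factor, was at 234 ± 47.6 CPM in members and 82.4 ± 62.0 in other CD4 T cells. Zbtb16, the factor that marks natural killer T cells, was found in 0.0865% of members and 0.0579% of B cells.

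Genes known from regulatory T cells were also high, though the gate removed cells with Foxp3 or Il2ra. Of 8 such genes, 7 were above other CD4 T cells in all 10 replicates, with a median log2 ratio of 3.2. Ikzf2 (Helios) was at 796 ± 150.3 CPM in members, 85.5 ± 169.9 in other CD4 T cells and 2135 in Foxp3+ cells, and it was found in 63.1%, 4.27% and 88.8% of them and in 0.806% of B cells. Ctla4, an inhibitory receptor, was at 787 ± 149, 86.5 ± 94.3 and 1373 CPM. Of the 206 Foxp3+ cells, 107 (51.9%) were recognised by a single Foxp3 UMI, which is near the limit of detection at this depth. The CD25 tag, read by an antibody to the IL-2 receptor alpha chain, was at 0.175 ± 0.0482 UMIs per cell in members, 0.115 ± 0.0495 in other CD4 T cells and 0.460 in Foxp3+ cells. On other tags the mean of Foxp3+ cells lay above that of members, at 27.7 UMIs per cell for CD73, 18.5 for CD278, 1.69 for CD279, 3.11 for CD69 and 9.62 for CD38, whereas CD200 was at 1.27, against 2.60 in members. How many members were regulatory T cells without a Foxp3 UMI was not tested.

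General activation genes were higher too, with 18 of 23 above other CD4 T cells in all 10 replicates (median log2 ratio 1.55), as were 11 of 14 costimulation and checkpoint genes (1.66). Cd44, the hyaluronan receptor of memory cells, was at 227 ± 33.0 against 54.5 ± 32.9 CPM, the integrin Itgb1 at 544 ± 65.6 against 123 ± 128, and S100a4 at 283 ± 78.2 against 51.6 ± 62.9. Naive and homing genes went the other way, with 11 of 14 lower in all 10 replicates and a median log2 ratio of -1.52. Ccr7 was at 308 ± 119 CPM against 793 ± 228, Lef1, a factor of naive T cells, at 199.9 ± 42.7 against 876 ± 153, and Igfbp4 at 40.8 ± 16.6 against 364 ± 100.3. Ly6c1 showed the lowest ratio of all genes considered, at 6.41 ± 6.63 CPM in members and 78.8 ± 47.2 in other CD4 T cells, or 12.3-fold lower. Ribosomal protein genes were lower in all 10 replicates for 32 of 33 members of the list, but by little (median log2 ratio -0.56).

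**Figure D1:**
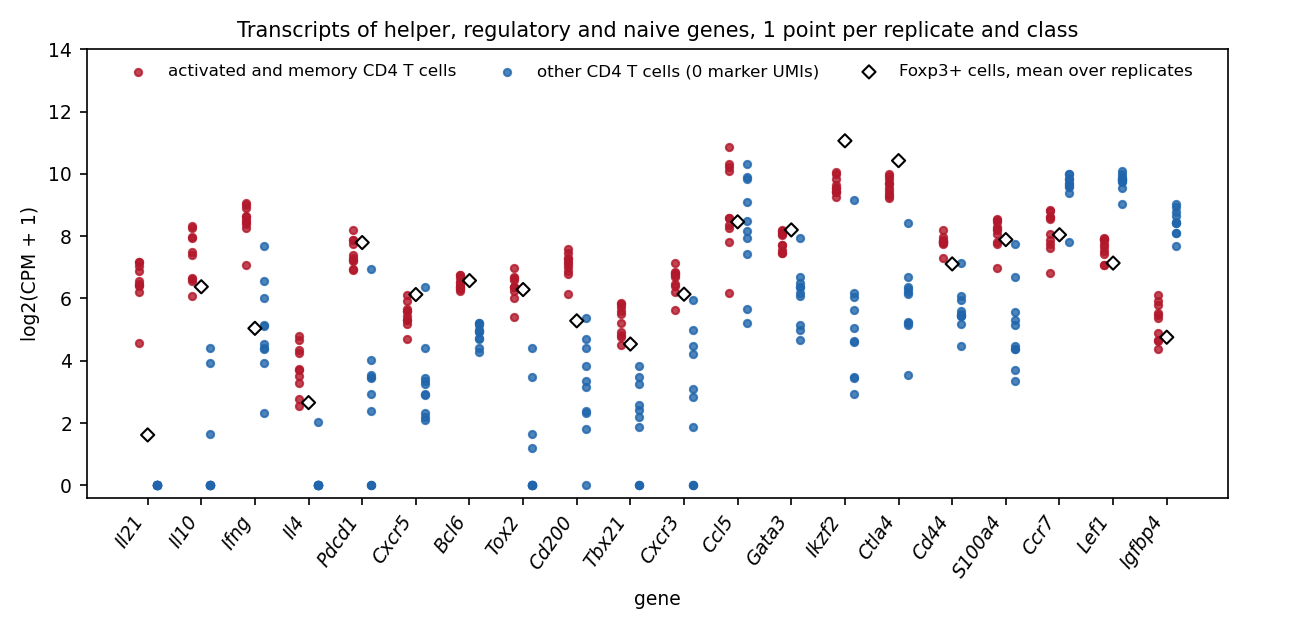
Levels of 20 helper, regulatory, activation and naive genes as log2(CPM + 1), with 1 point for each of the 10 replicates in activated and memory CD4 T cells (red) and in other CD4 T cells (blue), and a diamond for the mean of Foxp3+ cells. Il21 was at 0 in all 10 replicates of other CD4 T cells, Ccl5 overlapped between the classes, and Ccr7, Lef1 and Igfbp4 were lower in the activated and memory cells in each replicate.

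The population was not uniform. Members were split within each replicate by 1 gate gene at a time, into those with at least 2 of its UMIs and those with none, and other genes were read as mean CPM over replicates, again as a description. The 167 members with Sostdc1 had Pdcd1 at 332 against 152 CPM in the 938 without, Cd200 at 288 against 109.7 (each higher in 9 of 10 replicates) and Lag3, a checkpoint receptor, at 219.8 against 88.0 (10 of 10). Il10 was at 19.1 against 212 CPM, Ccl5 at 53.5 against 872 and Nkg7, a cytotoxic granule gene, at 19.3 against 177, all lower in 10 of 10 replicates. On the surface the Sostdc1 cells had 30.6 against 15.8 CD73 tag UMIs per cell, 5.15 against 2.09 for CD200 and 2.14 against 1.12 for CD279, higher in 10 of 10 replicates each.

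The Tnfsf8 split resembled that by Sostdc1 in part. The 529 members with it had Ifng at 554 against 204 CPM in the 452 without, Spp1 at 193 against 19.7 and Angptl2, a secreted glycoprotein, at 111 against 14.1, higher in 10 of 10 replicates each. Cd200 (218 against 44.7) and Lag3 (160.3 against 52.3) were also higher in 10 of 10, and Ccl5 was at 137 against 1769 CPM and lower in 9 of 10. Unlike in the Sostdc1 split, Il10 was higher, at 269 against 71.5 CPM (9 of 10). Splitting by Izumo1r gave a like result for Ccl5, with 192 CPM in the 659 members with it and 2259 in the 276 without. The Maf split went the other way for Ccl5, at 1057 CPM with Maf and 108 without, higher in 8 of 10 replicates. In the Maf split Ccr7 was at 145 CPM in the 715 members with the gene and at 699 in the 257 without, lower in 10 of 10 replicates. Ccr7 was also at 109.8 against 343 CPM in the Sostdc1 split and 216 against 392 in the Tnfsf8 split, but at 371 against 194 in that by Izumo1r. The splits use the counts of the gate itself, and members at its threshold had Ccr7 at 781 CPM, whose part in these differences was not tested. Il21 was at 119.8 and 40.1 CPM in the Maf split, and Il10 at 259.6 and 36.0. Median RNA depth with and without a gene was 3252 and 3435 UMIs for Maf, 3318 and 3222.5 for Tnfsf8, 3354 and 3095.5 for Izumo1r and 3362 and 3253.5 for Sostdc1. Tag counts per cell were not scaled in these splits, and the CD4 tag too was higher with Sostdc1 (86.7 against 70.3) and with Tnfsf8 (81.4 against 63.7), in 10 of 10 replicates each.

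Surface proteins were not used by the gate, so their tags could be tested between the classes. The test was edgeR's quasi-likelihood test on tag UMIs summed per replicate and class, with the replicate as a block and Benjamini-Hochberg adjustment over 142 antibodies. It called 40 antibodies (28.2%) at an adjusted p under 0.05, of which 30 were higher in members and 10 lower. With RLE in place of TMM scaling the calls were 47, of which 23 were higher and 24 lower, because the median log2 difference over all antibodies moved from 0.12 to -0.18. The 8 antibodies with the greatest increase, and CD55, CD26, CD31, CD124, CD27, CD127 and CD270 among those that were lower, kept direction and call in each of 21 alternative analyses.

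CD73, the ecto-enzyme that makes adenosine and is encoded by Nt5e, separated the classes most. Members carried 18.5, 16.1, 15.4 and 18.3 CD73 tag UMIs per cell in WT, 21.6, 22.7, 19.8 and 17.2 in R594C/+, and 17.6 and 16.0 in R594C/R594C. Other CD4 T cells carried 1.29 to 3.36, so the classes did not overlap. The log2 difference was 3.26 (SE 0.16, adjusted p = 8.97e-15). Nt5e itself, at chr9:88327609-88372089, was at 252 ± 52.5 CPM in members and 20.2 ± 22.4 in other CD4 T cells.

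ICOS protein (antibody CD278) was at 13.3 ± 1.92 tag UMIs per cell in members and 1.93 ± 0.421 in other CD4 T cells, a log2 difference of 2.62 (SE 0.15, adjusted p = 1.20e-13). A second antibody to CD278 in the panel gave 0 tags in members. The checkpoint receptors PD-1 (CD279; 1.26 ± 0.261 against 0.183 ± 0.0954 UMIs per cell) and TIGIT (0.967 ± 0.290 against 0.151 ± 0.0964) were higher by 2.75 and 2.71 on the log2 scale, with SEs of 0.22 and 0.25. CD200, a ligand that restrains myeloid cells, was higher by 2.48 (SE 0.17) and the early activation protein CD69 by 1.89 (SE 0.17). The ATP receptor P2X7R was higher by 1.81 (SE 0.22) and the ecto-enzyme CD38 by 1.57 (SE 0.23). CD38 was the only one of these 8 with an exception among replicates: in R594C/+ replicate 1 the 14 other CD4 T cells had 8.86 CD38 tag UMIs per cell and the members 6.99.

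CD55, a complement inhibitor, was at 4.14 ± 1.01 against 11.4 ± 3.36 UMIs per cell (log2 difference -1.60, SE 0.15, adjusted p = 1.40e-09). CD26, CD31, CD124, CD27, CD127 and CD270 fell by 0.90, 0.84, 0.80, 0.75, 0.69 and 0.63 on the log2 scale, and their tags per cell were lower in 8 or more of the 10 replicates. CD127, the IL-7 receptor alpha chain of resting T cells, was at 0.605 ± 0.15 UMIs per cell against 0.838 ± 0.145.

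The CD4 tag itself (72.9 ± 5.32 against 53.8 ± 6.41 UMIs per cell, adjusted p = 0.167), CD25 (adjusted p = 0.260) and CXCR5 (CD185; adjusted p = 0.843) did not pass the test. CD5, which tunes receptor signals, was at 144 ± 18.5 against 88.1 ± 9.87 UMIs per cell (log2 difference 0.52, SE 0.12, adjusted p = 0.00153), but missed the threshold in 9 of the 21 alternatives, among them those without R594C/+ replicate 1, R594C/+ replicate 4 or R594C/R594C replicate 1. Tags and transcripts mostly moved alike: in 35 of the 39 called antibodies with a matched gene, the transcript mean differed in the same direction. For CD270 and CD26 the transcript means were close (2.94 against 3.13 and 15.8 against 16.2 CPM), and members were higher in 7 and 6 of 10 replicates. The 4 antibodies whose transcript differed in the other direction were CD86, CD49f, CD90 and CD27. Cd27 transcripts were higher in members (364 ± 41.4 against 250.4 ± 45.7 CPM, 10 of 10 replicates) where the CD27 tag was lower. The antibody to CD44 yielded about 0 tags in both classes (0.00249 and 0.00413 UMIs per cell), so the surface CD44 that usually defines memory cells could not be read.

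**Figure D2:**
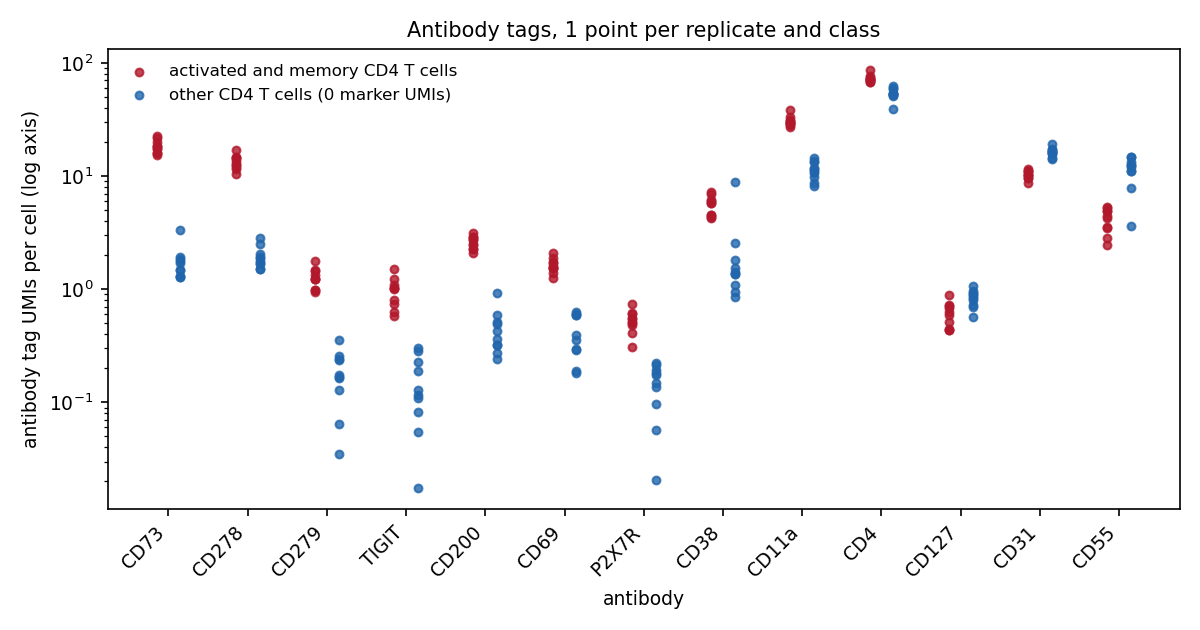
Antibody tag UMIs per cell (log axis) for 13 antibodies, with 1 point for each of the 10 replicates in activated and memory CD4 T cells (red) and other CD4 T cells (blue). CD73, CD278, CD279, TIGIT, CD200, CD69, P2X7R and CD11a were higher in the activated and memory cells of every replicate, and CD55 and CD31 lower.

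The share of activated and memory cells was compared between genotypes over replicates. Among CD4 T cells without Foxp3 or Il2ra, they made up 54.2%, 39.4%, 46.2% and 46.5% in WT (46.6 ± 6.07%, SD, n = 4), 82.4%, 71.1%, 37.3% and 60% in R594C/+ (62.7 ± 19.2%, n = 4) and 52.2% and 33.3% in R594C/R594C (42.7 ± 13.4%, n = 2). The heterozygous replicates spread widely, from above every other sample to below all 4 WT samples. A two-sided exact permutation test over the 3 genotypes gave p = 0.211 (3150 assignments).

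Of all cells with a hashtag, the population was 2.94%, 2.09%, 2.88% and 2.45% in WT (2.59 ± 0.399%, n = 4), 4.49%, 3.46%, 2.39% and 2.98% in R594C/+ (3.33 ± 0.888%, n = 4) and 2.01% and 1.79% in R594C/R594C (1.90 ± 0.157%, n = 2). Both homozygous values lay under all others, but the exact permutation p over the 3 genotypes was 0.0762, and the pairwise p for homozygous against WT was 0.133, where 0.0667 is the smallest that 2 against 4 samples allow. Without R594C/+ replicate 3, the exact permutation p was 0.0119 for the share of all cells and 0.0246 for the share of CD4 T cells, so 1 replicate decides whether these shares pass 0.05. Leaving out any other single replicate gave p between 0.0889 and 0.190 for all cells and between 0.213 and 0.466 for CD4 T cells.

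**Figure D3:**
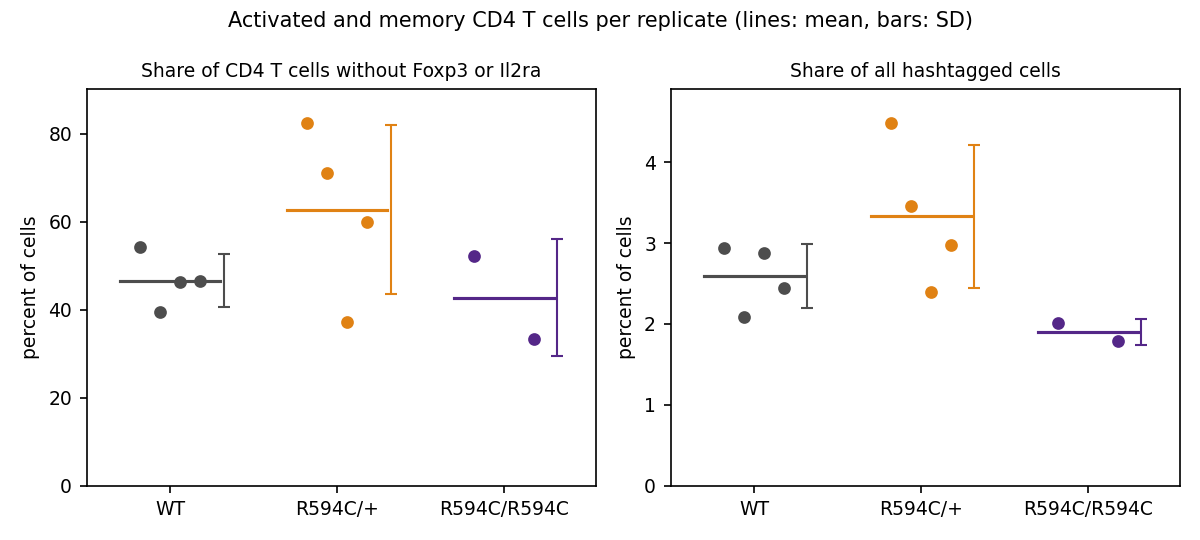
Share of activated and memory CD4 T cells in percent, of CD4 T cells without Foxp3 or Il2ra (left) and of all cells with a hashtag (right), with 1 point per replicate, the mean as a line and the SD as a bar. The R594C/+ replicates reach from 37.3% to 82.4% on the left and include the highest value on the right, 4.49%.

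The mutated gene was sparse in these cells. Ern1, at chr11:106397620-106487796, gave 0 to 12.2 CPM per replicate (6.11 ± 3.74 CPM, n = 10), too few UMIs to enter the test between genotypes. Counting 3' ends does not read the mutated codon, so the level does not check the genotype. Xbp1, whose mRNA IRE1 splices, was at 80.8 ± 18 CPM in WT (n = 4), 93.9 ± 9.50 in R594C/+ (n = 4) and 81.7 ± 20.4 in R594C/R594C (n = 2). Its log2 difference from WT was 0.23 (SE 0.20) in R594C/+ and 0.02 (SE 0.23) in R594C/R594C, and neither passed (edgeR adjusted p = 0.936 and 0.996). Splicing cannot be read from these counts.

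Few genes differed between genotypes in activated and memory CD4 T cells. Of 6662 genes tested with edgeR over summed UMIs, 1 (0.0150%) differed between R594C/R594C and WT, 3 (0.0450%) between R594C/+ and WT, and 8 (0.120%) between R594C/R594C and R594C/+. At an unadjusted p under 0.05 the counts were 329 (4.94%), 388 (5.82%) and 447 (6.71%). DESeq2 called 7, 17 and 9. Without R594C/R594C replicate 1, which gave the most UMIs, the calls were 16 for homozygous against WT and 26 for homozygous against heterozygous.

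Fcer1g, the signalling chain of Fc receptors in myeloid and natural killer cells, was the gene that differed between homozygous and WT cells. Its level was 20.9, 11, 9.85 and 2.95 CPM in WT, 39.8, 45.7, 15.8 and 34.7 in R594C/+, and 74.8 and 48.9 in R594C/R594C. The homozygous replicates lay above the rest, and the log2 difference from WT was 2.47 (SE 0.40, adjusted p = 0.00546). Only 35 members held its 155 UMIs, and 10 cells held 77.4% of them. Cells with a UMI were 9 of 353 members in WT, 17 of 505 in R594C/+ and 9 of 298 in R594C/R594C. The share of positive members was thus close between genotypes, and the difference in CPM lay mainly in the UMIs of a few positive cells. Beside Fcer1g, the summed level of 13 monocyte and macrophage genes in members was 277 to 362 CPM in WT, 519.9 to 1039.8 in R594C/+ and 669 to 879 in R594C/R594C, with none of the 13 at 0. The 9 genes of CD8 T and natural killer cells, of which Cd8a and Cd8b1 were at 0 by the gate, summed to 8.23 to 127, 36.1 to 76.6 and 184 to 221 CPM in the same order, and 11 neutrophil genes to 34.5 to 64.9, 167 to 15289.6 and 78.7 to 4293. Members with more than 2 UMIs over 18 genes of other cell types made up 6.23%, 17.2% and 17.1% of the 3 genotypes, and without these cells Fcer1g had too few UMIs to be tested and edgeR called 0 genes between homozygous and WT (378 at an unadjusted p under 0.05). The part of other cells' RNA in the Fcer1g difference was not tested. The call was lost without R594C/R594C replicate 1 (log2 difference 2.14, adjusted p = 0.0506), and with members held to no Cd79a UMI or to a marker sum of 3 (adjusted p = 0.120 and 0.114).

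Dusp1, an early-response phosphatase that inactivates MAP kinases, was higher in heterozygous cells. Members had 1049, 1281, 1394 and 1237 CPM in WT, 1993, 1879, 1605 and 1951 in R594C/+, and 1515 and 1287 in R594C/R594C. WT and R594C/+ did not overlap, and the log2 difference was 0.59 (SE 0.09, adjusted p = 0.00168). In other CD4 T cells Dusp1 was at 279.9 to 358 CPM in WT and 378 to 1008 in R594C/+, and the difference between classes did not pass (interaction -0.02, adjusted p = 1). The call was lost when cells with RNA of other cell types were left out (0.51, adjusted p = 0.0991) and when cells were thinned to 2000 UMIs (0.53, adjusted p = 0.127).

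Immunoglobulin transcripts, which T cells do not make, also differed. Ighm was at 631 ± 92.7 CPM in WT members (n = 4), 996 ± 65.3 in R594C/+ (n = 4) and 479 ± 32.2 in R594C/R594C (n = 2), with a log2 difference of 0.66 (SE 0.11, adjusted p = 0.00168) between R594C/+ and WT and -1.05 (SE 0.14, adjusted p = 3.56e-05) between R594C/R594C and R594C/+. Other CD4 T cells showed the same order, at 506 ± 60.1, 728 ± 89.5 and 497 ± 6.11 CPM. The 15 B cell genes summed to 1945 to 2806 CPM in WT members, 3005 to 4479.9 in R594C/+ and 1747 to 2424 in R594C/R594C. Ighg1 was higher in R594C/+ than in WT by 3.05 (SE 0.61, adjusted p = 0.0377) on 64 UMIs in all, and Ighg2c fell by 3.38 on the log2 scale between R594C/+ and R594C/R594C (SE 0.52, adjusted p = 0.00436). The Ighm difference between R594C/+ and WT was 0.53 with expressed sex as a covariate and did not pass (adjusted p = 0.203). With thinned cells neither Ighm difference passed (adjusted p = 0.691 and 0.729), and at a marker sum of at least 1 the first turned to -1.21 and the second missed the threshold (adjusted p = 0.879 and 0.926). The Ighg1 call was lost without WT replicate 3 or 4 and without R594C/+ replicate 1, 2 or 4, and the Ighg2c call without R594C/R594C replicate 1. The part of free B cell RNA in these differences was not tested.

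The remaining calls were mostly between the homozygous and heterozygous cells. Igf1r, the receptor of insulin-like growth factor 1, was at 137, 121, 91.1 and 139 CPM in WT, 190.3, 183, 124 and 179 in R594C/+, and 80.8 and 66.4 in R594C/R594C. It was lower in homozygous than in heterozygous cells by a log2 difference of -1.19 (SE 0.21, adjusted p = 0.00436), without overlap, and the difference from WT did not pass (-0.70, adjusted p = 0.657). Malt1, a signalling protein downstream of the T cell receptor, was at 359 and 360.1 CPM in R594C/R594C and 435 to 755 in R594C/+ (log2 difference -0.80, SE 0.17, adjusted p = 0.0460). The transcription factor Irf8 was at 71.8 and 62.9 CPM in R594C/R594C and 19.9 to 27.0 in R594C/+ (1.46, SE 0.30, adjusted p = 0.0364), and the DNA helicase gene Hells at 85.2 and 55.9 against 20.3 to 31.3 CPM (1.38, SE 0.29, adjusted p = 0.0364). Without R594C/R594C replicate 2 the Igf1r call was lost (-1.08, adjusted p = 0.0952), and Malt1, Irf8 and Hells each lost their call in 12 or more alternatives, all 3 of them without R594C/+ replicate 1, 2 or 4. The other 2 genes called in this contrast were Ighg1 (-3.13, with an adjusted p just under the threshold) and the predicted gene 9930111J21Rik2 (-0.97, adjusted p = 0.0364). Ighg1 lost this call in 15 of 22 alternatives, among them those without WT replicate 3, R594C/+ replicate 1, 2 or 4, or either R594C/R594C replicate, and 9930111J21Rik2 in 12 of 23, among them those without R594C/+ replicate 2 or 4 or either R594C/R594C replicate. With expressed sex as a covariate, 15 genes were called in this contrast.

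**Figure D4:**
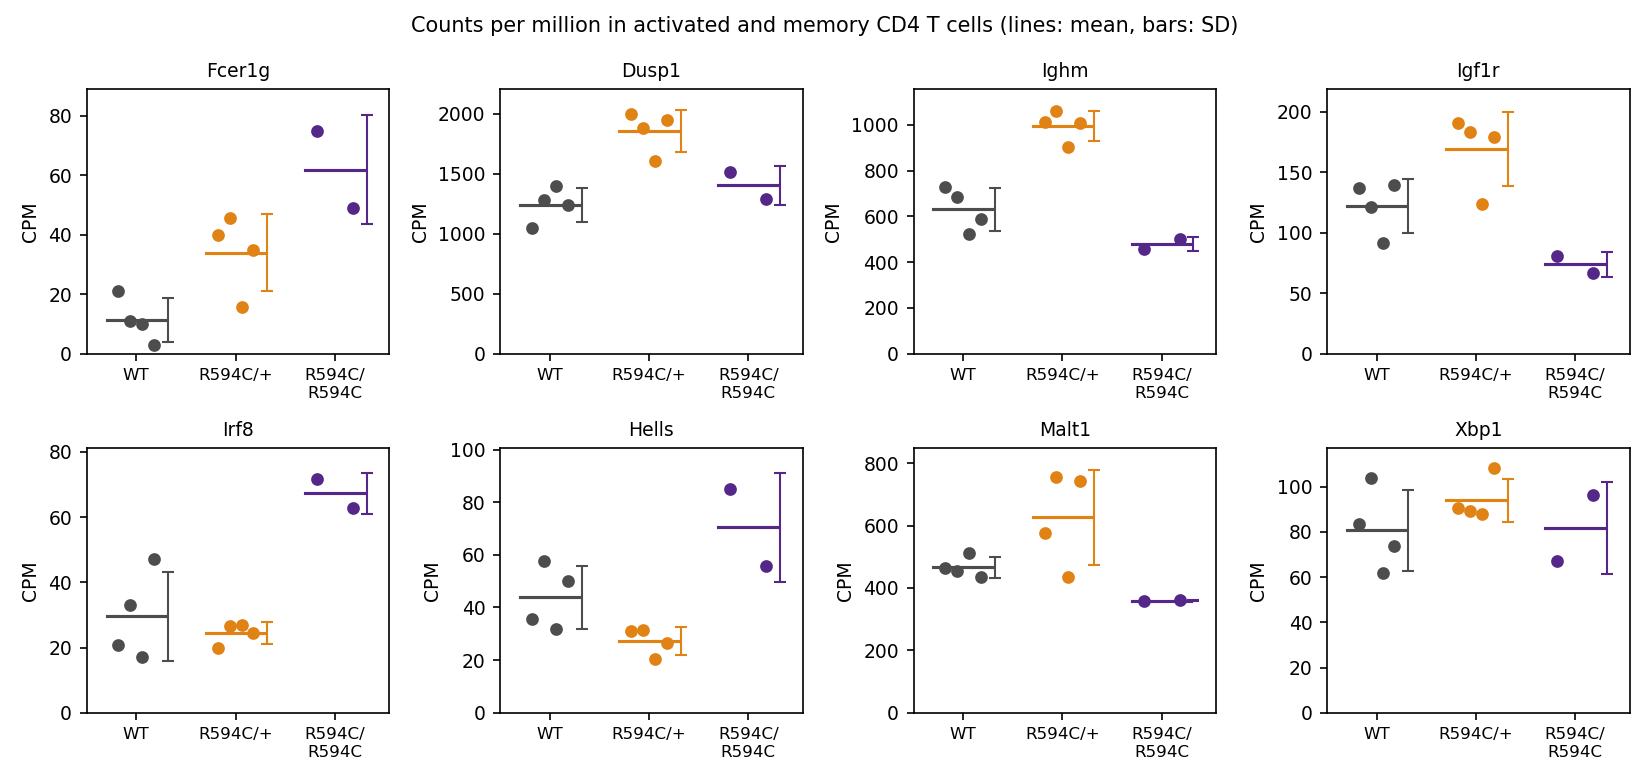
Levels in CPM of 8 genes in activated and memory CD4 T cells by genotype, with 1 point per replicate, the mean as a line and the SD as a bar. Fcer1g was highest in the 2 R594C/R594C replicates, Dusp1 and Ighm were higher in all 4 R594C/+ replicates than in WT, Igf1r was lowest in R594C/R594C, and Xbp1 overlapped between the genotypes.

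Helper and stress genes seldom passed between genotypes. Of 20 follicular helper genes tested, none passed in the 3 contrasts. Their median log2 differences were -0.14 (homozygous against WT) and 0.05 (heterozygous against WT), where all 6662 genes had -0.01 and 0.00. The 20 genes include Sostdc1 and Izumo1r, whose counts the gate itself used. Il21 had a log2 difference of -1.11 (SE 0.37) between homozygous and WT cells, which did not pass (adjusted p = 0.731). None of 14 T helper 1 and cytotoxic genes, 23 activation genes, 15 costimulation and checkpoint genes or 9 regulatory T genes passed in any contrast. Among genes of the unfolded protein response, none of 8 sensors and factors, 14 chaperones, 47 XBP1s targets and secretory genes or 8 ATF4 and CHOP targets passed either. The median log2 difference of the 47 XBP1s and secretory genes was -0.03 for homozygous and 0.06 for heterozygous against WT. Hspa5, which encodes the chaperone BiP, had log2 differences of -0.03 (SE 0.14) and 0.02 (SE 0.11). Of 11 genes of cholesterol synthesis none passed, at a median log2 difference of 0.62 between homozygous and WT cells, and of 19 proliferation genes none, at 0.38. In the 3 contrasts the lists with a called gene were natural killer T and gamma delta T (Fcer1g), immediate early (Dusp1), B cell (Ighm), plasma cell (Ighg1 and Ighg2c) and dendritic (Irf8), each with 1 called gene in a contrast except plasma cell with 2.

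Antibody tags differed far more often than transcripts, in the same cells. Of 151 antibodies tested in members, 74 (49.0%) differed between R594C/R594C and WT, 49 (32.5%) between R594C/+ and WT and 35 (23.2%) between R594C/R594C and R594C/+. At an unadjusted p under 0.05 the counts were 86 (57.0%), 62 (41.1%) and 55 (36.4%). Of the adjusted calls 21, 6 and 9 were higher, and with RLE scaling 44 of 85, 24 of 51 and 16 of 36 were higher. The median log2 difference over all antibodies was -0.38 in the first contrast and moved to 0.02 with RLE.

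Isotype control antibodies, which bind no target, followed the same split. The 9 controls summed to 2.83, 2.54, 2.53 and 2.59 tag UMIs per member cell in WT, 1.24, 0.991, 1.11 and 1.15 in R594C/+, and 0.605 and 0.281 in R594C/R594C. The 3 genotypes did not overlap, and other CD4 T cells showed the same order (2.33 ± 0.151, n = 4, then 1.05 ± 0.0688, n = 4, and 0.310 ± 0.121, n = 2). All 4 controls with enough tags to test were lower in homozygous than in WT members, with a median log2 difference of -2.36. The antibodies with the greatest decreases were IL33Ra (-4.36), CD200R3 (-3.68), MAdCAM1 (-3.66) and TCRg3 (-3.62), each at 0.442 UMIs per cell or fewer in WT. Background staining and genotype cannot be told apart for such antibodies.

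Other antibodies were higher in homozygous than in WT members, while the isotype controls were lower. Staining and genotype cannot be told apart for these antibodies either. CD5 averaged 128 UMIs per cell in WT members, 147 in heterozygous and 166 in homozygous ones, and was higher in R594C/R594C than in WT by a log2 difference of 0.76 (SE 0.12, adjusted p = 2.32e-04), with all 23 alternatives past the threshold. CD24, a glycoprotein of immature and B cells, rose from 1.78 to 2.69 UMIs per cell (0.99, SE 0.21, adjusted p = 0.00169) and CD86 from 3.85 to 5.31 (0.85, SE 0.19, adjusted p = 0.00274). KLRG1, an inhibitory receptor of effector cells, was at 0.456, 0.161, 0.247 and 0.557 in WT and 1.17 and 1.16 in R594C/R594C (2.13, SE 0.52, adjusted p = 0.00537). Log2 differences are relative to the TMM scaling: per cell, CD73 was at 17.1 UMIs in WT and 16.8 in R594C/R594C although the scaled difference was 0.37 (adjusted p = 0.0306), a call that was lost without WT replicate 3, WT replicate 4 or R594C/R594C replicate 2. CD73 was also called higher in R594C/+ than in WT, in 21 of 23 alternatives. The exceptions were those with expressed sex as a covariate and with thinned cells. The CD54 tag, an adhesion protein induced by activation, was called higher than in WT in both mutant genotypes. Its R594C/R594C call was kept in 22 of 23 alternatives, the exception being without R594C/R594C replicate 2 (0.53). In R594C/+ CD54 was at 7.47 UMIs per cell against 4.75 in WT (0.77, SE 0.14, adjusted p = 0.00195). CD11b, a myeloid integrin, was at 2.31 against 0.502 (2.37, SE 0.74, adjusted p = 0.0397), a call lost without any 1 of the 4 WT replicates or R594C/+ replicate 3, and turned to -0.12 without cells that held RNA of other cell types.

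**Figure D5:**
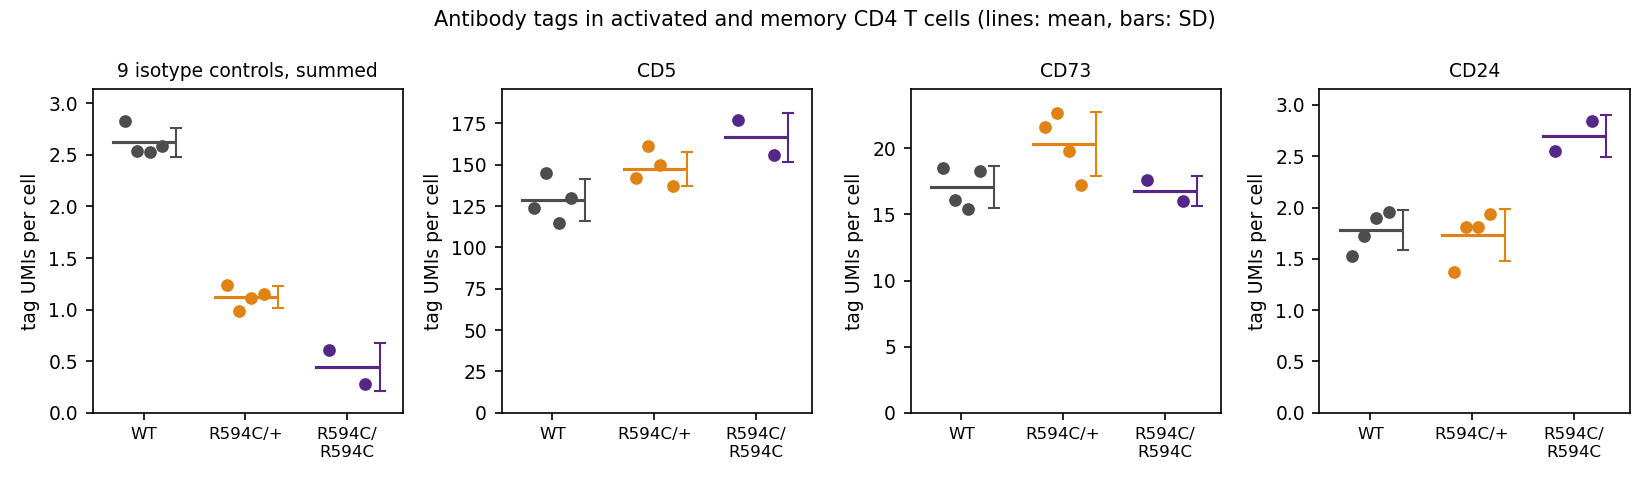
Antibody tag UMIs per cell in activated and memory CD4 T cells by genotype for the sum of 9 isotype controls, CD5, CD73 and CD24, with 1 point per replicate, the mean as a line and the SD as a bar. The controls fall from 2.62 in WT to 0.443 in R594C/R594C, whereas CD5 and CD24 are higher in R594C/R594C than in WT.

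Whether a genotype difference was particular to activated and memory cells was tested as a class by genotype interaction, with each replicate as a block. Of 6848 genes, 1 (0.0146%) differed for homozygous against WT, 6 (0.0876%) for heterozygous against WT and 9 (0.131%) for homozygous against heterozygous. DESeq2 called none in any of the 3, with 63, 118 and 113 genes at an unadjusted p under 0.05, and the same edgeR test without the block also called none. Ccl4, a chemokine of effector T cells, was the gene for homozygous against WT, with a log2 interaction of -2.39 (adjusted p = 0.00107). Other CD4 T cells had 12.9, 12.5, 6.58 and 36.3 CPM of Ccl4 in WT and 471 and 26.4 in R594C/R594C, so 1 homozygous replicate was far above the rest. The call was lost without that replicate, R594C/R594C replicate 1, and without WT replicate 4. For S100a4 and Top2a in heterozygous against WT (-2.02 and -2.58, adjusted p = 0.00217 each), members had log2 differences of -0.28 and 0.31, and other CD4 T cells reached 101 and 214 CPM of S100a4 in R594C/+ replicates 1 and 2, which held 14 and 31 cells and 5 and 21 UMIs of the gene. Both calls were lost without R594C/+ replicate 2 and without WT replicate 3, and that of Top2a also without WT replicate 4. Antibody tags gave 13 interaction calls (9.15%) for homozygous against WT, 0 for heterozygous against WT (13 at an unadjusted p under 0.05) and 4 (2.82%) for homozygous against heterozygous. Both RLE scaling and DESeq2 called 0 in each contrast, with 8 to 16 and 8 to 17 antibodies at an unadjusted p under 0.05.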

How the data were processed

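RNA, antibody tags and hashtags were counted by the authors as UMIs per cell and deposited as raw count matrices. Cell Ranger 5.0.0 made them, per the file headers, and the submitters' processing notes also name STAR, Seurat 3.1.4 and the mm10 build, with no role. Cells were kept with at least 200 genes, at most 10% mitochondrial UMIs, and a top hashtag of at least 20 UMIs and 3 times the next. UMIs were summed per replicate and class, and CPM is UMIs per 1000000 of that sum. Counts were tested with edgeR 4.0.16 (quasi-likelihood, robust, TMM scaling, filterByExpr, for antibodies a mean of at least 10 UMIs), with Benjamini-Hochberg adjustment and a threshold of 0.05. DESeq2 1.42.0, RLE scaling, other gates, thinning to 2000 UMIs, sex as a covariate and leaving out each replicate were alternatives. The scripts were tested on simulated data. Shares were tested by exact permutation. B cells held at least 3 UMIs of Cd79a, Cd79b and Ms4a1 and none of CD3.

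Members and gene lists were chosen with earlier results of these data known. Genes named were the gate genes, Icos, Ern1, Xbp1, up to 8 highest and 8 lowest calls per genotype contrast, called genes of the lists, the 4 most abundant genes of a list, the 10 highest and 10 lowest ratios between classes, subset-defining genes and the interaction genes of lowest p. Others were named after their values were seen. Antibodies named were those called between genotypes, the 8 highest and 8 lowest between classes, and lineage markers. Results for some named items are not reported here.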

Additional observations from a re-analysis of the deposited data

Results flagged for a closer look

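Of 94 groups of 4 replicates, 4 had 1 value far from the other 3, where chance marks about 1 in 20 groups. In WT members these were 9930111J21Rik2 in replicate 3 (76.3 CPM, the others 101 to 106) and Cd44 in replicate 4 (156 CPM, the others 223 to 229). In R594C/+ members they were Igf1r in replicate 3 (124 CPM, the others 179 to 190) and Xbp1 in replicate 4 (108 CPM, the others 87.9 to 90.7).

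Some genotype differences were unlike in members and in other CD4 T cells by the interaction test of edgeR. Between R594C/+ and WT the log2 interaction was -2.61 for Ccl4 (adjusted p = 0.00122), -2.58 for Top2a and -2.02 for S100a4 (0.00217 each), -2.35 for Cdkn1a (0.0224), 7.03 for the neutrophil gene Lcn2 (0.0359) and -3.20 for Cxcr3 (0.0460). Between R594C/R594C and R594C/+ it was -7.14 for Lcn2 (1.72e-18), -7.23 for Chil3 (9.60e-08), -5.27 for Ltf (7.68e-07), -4.57 for Wfdc21 (0.00480), -5.04 for Anxa1 (0.0109), -5.36 for Hp (0.0119), 2.56 for S100a4 (2.99e-04), 2.20 for Ybx3 (0.00871) and 2.02 for Top2a (0.0250). Between R594C/R594C and WT it was -2.39 for Ccl4 (0.00107). All 754 Lcn2 UMIs of the members came from 16 cells, 1 of which held 46.2%. Without R594C/R594C replicate 1 the Lcn2, Chil3, Ltf, Wfdc21, Anxa1, Hp and Ybx3 calls between R594C/R594C and R594C/+ were lost. In other CD4 T cells of that replicate the neutrophil gene S100a8 was at 3078 CPM, against 17.1 in R594C/R594C replicate 2. DESeq2 called 0 of these genes, and so did edgeR without the block.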

How the results depend on the processing

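Counts below are for R594C/R594C against WT, R594C/+ against WT and R594C/R594C against R594C/+, in that order where 3 are given, and the causes were not tested. Genes called in members (1, 3 and 8) became 39, 42 and 44 with no filter on low counts, 5, 7 and 15 with expressed sex as a covariate, 2, 5 and 3 with a stricter hashtag call, and 0, 0 and 3 with cells thinned to 2000 UMIs. DESeq2 gave 7 and 17 for the contrasts with WT. The first and the last contrast gave 2 and 14 with only their own genotypes fitted, 0 and 1 with no Cd79a UMI, and 3 and 5 at a marker sum of at least 1. The first gave 0 at a marker sum of at least 3, in cells up to 10000 UMIs and without cells holding RNA of other types (313 to 418 at an unadjusted p under 0.05), and the second 5 in cells up to 10000 UMIs. Leaving out 1 replicate gave 1 to 16, 2 to 10 and 3 to 26 genes. The highest values came without R594C/R594C replicate 1 (16 and 26) and without R594C/+ replicate 3 (10).

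With the replicate number as a block the gene counts in members were 6, 13 and 19. Deviations of same-numbered samples correlated between -0.14 and 0.14, as did those of different numbers. The 2 R594C/R594C replicates deviate from their mean in mirror image, so these equal ranges cannot decide whether numbers pair them. Between WT and R594C/+ the correlations were -0.03 to 0.03 for the same number and -0.03 to 0.04 for different numbers, which shows no pairing there.

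Antibodies called in members (74, 49 and 35) became 12 in the second contrast and 15 in the last with thinned cells, and 14 in the last with only its genotypes. Leaving out 1 replicate gave 55 to 87, 31 to 61 and 16 to 31, and 36 to 43 between classes. The exact permutation p of the shares ranged from 0.0246 to 0.466 among CD4 T cells and from 0.0119 to 0.190 among all cells, the lowest without R594C/+ replicate 3.

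Interaction genes (1, 6 and 9) became 0, 0 and 0 with DESeq2 and with no replicate block, 0, 0 and 2 with no Cd79a UMI and with thinned cells, 10 in the second contrast with no filter, 0 in the first at a marker sum of at least 3, 3 in the first without cells holding RNA of other types, and 1 and 0 in the second and last up to 10000 UMIs. Leaving out 1 replicate gave 0 to 6, 1 to 10 and 6 to 16. Interaction antibodies (13, 0 and 4) became 0 with RLE scaling, with DESeq2, with no replicate block and without cells holding RNA of other types, and 0 to 13, 0 to 4 and 0 to 5 without 1 replicate.

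Signs turned for Ighm between R594C/+ and WT at a marker sum of at least 1 (-1.21), for CD11b in that contrast with thinned cells (-0.22), up to 10000 UMIs (-0.17) and without cells holding RNA of other types (-0.12), and for the Top2a interaction of the last contrast with thinned cells (-1.39). The interaction test of antibodies and the removal of cells with RNA of other types were chosen after seeing the data. With 79 to 152 member cells per replicate, genes of a few UMIs rest on few cells.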
